A study of Mus musculus with 8 samples.

Results

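Heart RNA of Piezo1-Cko mice was set against that of wild-type mice over both surgeries of the study, with the surgery as a term of the model. The values below are therefore the genotype difference averaged over sham-operated and TAC-operated hearts, and a gene can differ between the surgeries in size or sign. All 8 libraries of the series belonged to this comparison: 4 Piezo1-Cko libraries (2 Cko sham and 2 Cko TAC) and 4 wild-type libraries (2 WT sham and 2 WT TAC). Of 54532 genes listed, 14817 reached 0.5 FPKM in at least 2 libraries and were tested, 12423 of them protein-coding. The unit FPKM counts fragments by kilobase of a gene's length and by library size. All mice were of the strain C57BL/6 per the labels, and the tissue was heart. TAC, the usual abbreviation of transverse aortic constriction, narrows the aorta and loads the left ventricle with pressure. Neither the driver of the conditional allele, nor the cells and exons it removes, nor the age of the animals or the time after surgery is given in the labels. Whether each library is a different animal is not stated either, and the p-values below therefore speak to the spread among these 8 samples alone, part of which may be technical.

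Piezo1 is a large cation channel of the plasma membrane that opens when the membrane is stretched and lets calcium into the cell. In the heart and its vessels it is known from cardiomyocytes, endothelial cells, fibroblasts and macrophages, and calcium that enters through it can reach calcineurin, calpain and calmodulin-dependent kinases. Flow over the endothelium acts through the same channel on shear-responsive transcription factors such as Klf2.

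The whole reads behind the FPKM summed to 15574769 to 17313084 per library, and mitochondrially encoded genes took 17.6% to 24.4% of them. Replicate libraries differed beyond what counting alone gives (chi-square per degree of freedom 17.3 to 44.2). Cardiomyocyte markers were high throughout, with Myh6 at 1145 FPKM or more in every library. The library WT sham 1 stood apart in atrial genes: Sln was at 43.6 FPKM there and listed at 0 in the other 7 libraries, and Myl7 at 394 FPKM against at most 0.44 FPKM. Dkk3, another atrial gene, was at 41.0 FPKM in WT sham 1 and 25.2 FPKM in WT TAC 1, and at most 2.13 FPKM elsewhere. Immunoglobulin transcripts set WT TAC 1 apart, with Igkc at 272 FPKM there and at most 25.9 FPKM in the other libraries.

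Esr1 set WT sham 1 apart from the other wild-type libraries in a further way. This gene, chosen for mention after its values were seen, encodes oestrogen receptor alpha, whose mutated hormone-binding domain is part of the tamoxifen-inducible Cre recombinases used for conditional deletion. Its level was 144 and 179 FPKM in Cko sham and 44.4 and 70.0 FPKM in Cko TAC, against 144 and 0.10 FPKM in WT sham and 0.31 and 0.39 FPKM in WT TAC. In reads these were 30154, 37363, 11181 and 16518 in the Cko libraries and 28021, 20, 78 and 95 in the WT libraries. The library labelled WT sham 1 thus lay within the range of the Cko libraries, while the other 3 WT libraries lay far below them. Over all 8 libraries the log2 difference was 5.08 (SE 1.44, limma adjusted p = 0.282), and without WT sham 1 it was 6.85. That library was set aside here for its own Esr1 value, so the larger difference cannot serve as a test. Gene totals do not show which part of Esr1 the reads covered, and whether they came from a transgene was not tested. Counts of most gene lists are therefore given below with WT sham 1 and without it. Without WT sham 1, fewer of all genes tested reached an unadjusted p under 0.05 in either direction than with all 8 libraries. The same held without both WT sham 1 and WT TAC 1. Part of a smaller list count in those fits is therefore shared by all genes.

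Piezo1 itself (chromosome 8, 122481698 to 122551329, minus strand, mm10) differed between the genotypes by less than the spread of the replicates. It was at 3.83 and 3.23 FPKM in Cko sham against 2.35 and 3.09 FPKM in WT sham, and at 5.24 and 3.89 FPKM in Cko TAC against 5.38 and 5.83 FPKM in WT TAC. Cko lay above WT under sham and below WT under TAC. The log2 difference was 0.02 (SE 0.16, 95% interval -0.35 to 0.40; limma adjusted p = 0.975), and an exact permutation test within each surgery gave a two-sided p of 0.889, where 36 arrangements allow no p below 0.0556. The change of the genotype difference between surgeries was -0.61 on the log2 scale (limma unadjusted p = 0.0513, adjusted p = 0.916). Exons outside a deleted stretch and the overlapping genes Ctu2, Gm26497 and Gm20388 can add to this total, so it does not check the genotype labels.

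**Figure D1:**
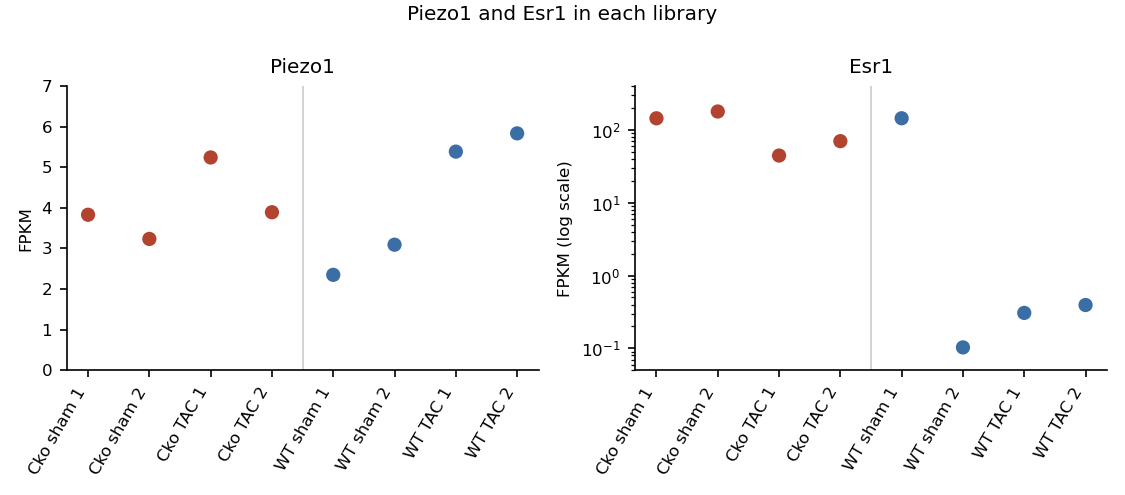
FPKM of Piezo1 (left, linear axis from 0) and Esr1 (right, log axis) in each of the 8 libraries, Cko in red and WT in blue, 1 point per library. Piezo1 overlaps between genotypes, while Esr1 is at 44.4 FPKM or more in the 4 Cko libraries and WT sham 1 and at most 0.39 FPKM in the other 3 WT libraries.

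No gene passed an adjusted p of 0.05 for the genotype difference over both surgeries (limma, 0.0% of 14817 genes). At an unadjusted p under 0.05, 791 genes were higher (5.34%) and 844 lower in Cko (5.7%), together 11.0%. limma-voom on the recovered reads also passed 0 genes, with 739 higher and 892 lower at the unadjusted level. With mitochondrially encoded genes left out and the libraries set to equal totals of the remaining reads, the unadjusted split was 1171 higher and 543 lower. Median-of-ratios scaling gave 803 higher and 835 lower, and trimmed-mean scaling 804 higher and 831 lower. The smallest adjusted p from limma, 0.0655, belonged to Gm22121, a predicted microRNA gene inside Ublcp1 with 3, 6, 2 and 5 reads in the Cko libraries and 0 in each WT library. Snord34 came next with 1 read in each Cko library and 0 in each WT library (limma adjusted p = 0.107). The median standard error was 0.14 and the median half-width of the 95% interval 0.32 on the log2 scale, which describes the precision of a typical gene at 4 libraries a side.

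Counts of libraries that did not overlap stayed in the same range. In 706 genes (4.76%) Cko lay above WT with no overlap within either surgery, and in 909 genes (6.13%) below, together 10.9%. All 4 Cko libraries lay above all 4 WT libraries in 253 genes (1.71%) and below them in 337 genes (2.27%). Across the genes tested, the genotype difference under sham and that under TAC, which share no library, had a Pearson r of 0.188 and a Spearman rho of 0.187, as a description over genes that are not independent. Their signs were equal in 56% of genes.

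**Figure D2:**
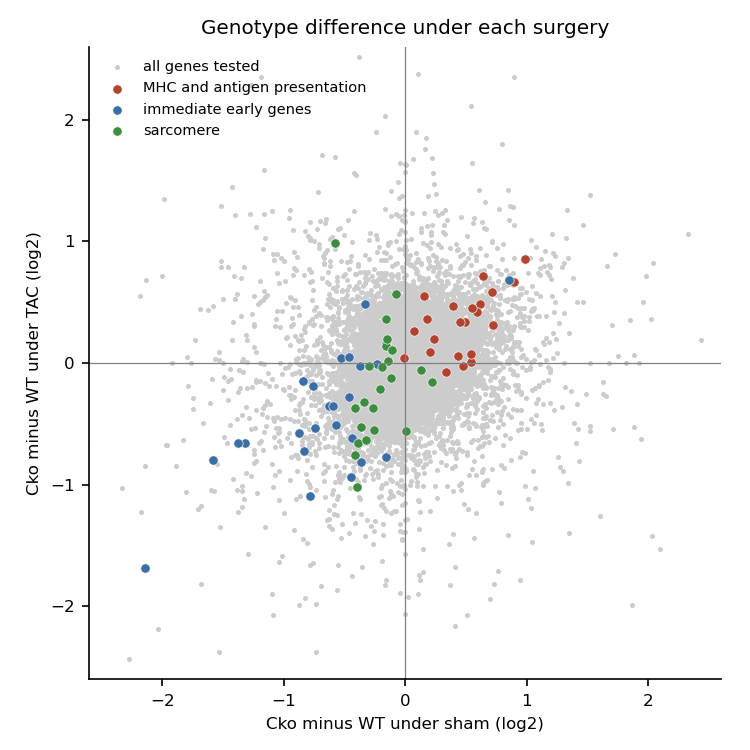
Cko minus WT under TAC against Cko minus WT under sham, both as differences of mean log2(FPKM + 0.5) of 2 libraries a side, 1 point per gene, with members of 3 lists coloured; 16 genes lie outside the axes. MHC members lie mostly to the upper right and immediate early genes to the lower left of the cloud of all genes.

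Of the genes with a level of at least 1 on the mean log2(FPKM + 0.5) scale and no overlap within either surgery, those with the smallest p are described first, none of them past the threshold. Among the 10 with the smallest p that lay above WT were 3 genes of antigen presentation. Psmb9 encodes an inducible subunit of the immunoproteasome, which cuts proteins into peptides for MHC class I. Its level was 10.7 and 9.77 FPKM in Cko sham against 5.86 and 6.99 FPKM in WT sham, and 7.66 and 9.63 FPKM in Cko TAC against 5.19 and 4.89 FPKM in WT TAC. All 4 Cko libraries lay above all 4 WT libraries, at a log2 difference of 0.68 (SE 0.10; limma adjusted p = 0.196). H2-Q6, a non-classical class I heavy chain, was at 52.5, 40.7, 29.2 and 43.2 FPKM in Cko and 22.3, 24.0, 18.1 and 20.9 FPKM in WT (sham 1 and 2, then TAC 1 and 2, as in all lists of 4 below). With a log2 difference of 0.92 (SE 0.14; limma adjusted p = 0.196), its groups did not overlap. For H2-T22, another non-classical class I gene, the values were 20.8, 20.49, 20.8 and 26.9 FPKM in Cko and 12.9, 14.97, 13.8 and 15.5 FPKM in WT, at a log2 difference of 0.61.

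Others of the 10 were a receptor of natural killer cells, a chemokine receptor and enzymes. Klra9, of the Ly49 receptor family, had 5.92, 4.80, 3.31 and 3.39 FPKM in Cko against 2.15, 1.65, 1.60 and 1.86 FPKM in WT (log2 difference 1.04, SE 0.14; limma adjusted p = 0.190). Its family consists of near-identical copies that can share reads, so the value is uncertain. Cxcr4, the receptor of the chemokine Cxcl12, had 10.5, 8.24, 10.05 and 11.6 FPKM in Cko against 5.02, 4.21, 6.54 and 7.24 FPKM in WT, and every Cko library lay above every WT library (log2 difference 0.78). Osgin1, an oxidative stress response gene, had 2.64, 2.39, 2.01 and 1.95 FPKM in Cko against 1.24, 1.03, 1.13 and 1.06 FPKM in WT (log2 difference 0.76, SE 0.11; limma adjusted p = 0.196). The lipoxygenase Alox12, the cholesterol transporter Abcg1, the corepressor Ripply3 and the sulfotransferase Chst7 had log2 differences of 0.81, 0.70, 0.61 and 0.59.

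Among the 10 with the smallest p that lay below WT were muscle genes, signalling genes and a shear-responsive factor. Cmya5, which encodes myospryn, a large protein of the costamere and sarcomere periphery, had 26.2, 26.1, 16.7 and 15.5 FPKM in Cko against 39.9, 37.4, 26.8 and 25.6 FPKM in WT. Cko lay below WT by a similar step under each surgery, at a log2 difference of -0.62 (SE 0.08; limma adjusted p = 0.159). Fbxo32, the muscle ubiquitin ligase atrogin-1, had 11.0, 9.97, 9.80 and 8.86 FPKM in Cko against 14.99, 16.2, 14.9 and 15.1 FPKM in WT, with no overlap at all (log2 difference -0.61, SE 0.08; limma adjusted p = 0.190). Myo18b, an unconventional myosin needed to build sarcomeres, had 16.3, 15.7, 15.1 and 15.5 FPKM in Cko against 20.4, 23.4, 23.7 and 21.9 FPKM in WT (log2 difference -0.50). Insr, the insulin receptor, stood at 7.57, 7.61, 7.18 and 6.37 FPKM in Cko against 10.9, 9.66, 11.4 and 10.8 FPKM in WT, again with all Cko libraries below (log2 difference -0.55).

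Larger steps among these 10 were seen in Sik1 and Adamts1. Sik1, a salt-inducible kinase that acts on the CRTC and class IIa HDAC regulators, had 3.96, 2.97, 3.96 and 3.89 FPKM in Cko against 10.8, 16.1, 6.66 and 11.3 FPKM in WT. All Cko libraries lay below all WT libraries (log2 difference -1.43, SE 0.23; limma adjusted p = 0.196). Adamts1, a secreted protease of proteoglycans, had 7.25, 6.14, 11.8 and 7.40 FPKM in Cko against 11.4, 16.8, 19.4 and 26.5 FPKM in WT, at a log2 difference of -1.12 (SE 0.19). Zfp106, Enc1, Klf2 and Efcab2 completed the group, with log2 differences of -0.51, -0.79, -0.72 and -0.61. Each of these 20 genes kept its direction in all 27 settings of the analysis, leaving out WT sham 1 included. They were chosen for having no overlap within either surgery, so leaving out libraries could not turn their direction.

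The list of MHC and antigen presentation genes, 22 of 22 tested, lay above WT as a whole. MHC class I molecules, a heavy chain with B2m, show peptides from inside the cell to CD8 T cells, and class II molecules show peptides of endosomal origin to CD4 T cells. All 22 members had a positive log2 difference, with a median of 0.37 (0.48 under sham, 0.34 under TAC) against 0.01 over all genes tested. Of the 22, 12 were higher at an unadjusted p under 0.05 (5.34% of all genes were), the same number did not overlap within either surgery (4.76% of all genes), and 0 passed the adjusted threshold. Without WT sham 1, 11 were higher and 21 positive, with a median of 0.32.

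The 12 were the class I heavy chains H2-K1, H2-D1, H2-Q4, H2-Q6, H2-Q7 and H2-T23, their light chain B2m, the peptide transporter subunits Tap1 and Tap2, the immunoproteasome subunits Psmb8 and Psmb9, and H2-Ob, a class II-like chain at 0.75 FPKM or less. B2m had 949, 893, 772 and 1072 FPKM in Cko and 577, 644, 624 and 740 FPKM in WT, so that the lowest Cko library stood above the highest WT library (log2 difference 0.51, SE 0.14; limma adjusted p = 0.269). H2-D1 had 291, 275, 242 and 278 FPKM in Cko against 178, 191, 175 and 197 FPKM in WT, also without overlap (log2 difference 0.55, SE 0.10; limma adjusted p = 0.196). H2-K1 had 237, 218, 167 and 191 FPKM in Cko against 133, 142, 141 and 146 FPKM in WT (log2 difference 0.52, SE 0.12). Class I heavy chains are near-identical to each other, so reads may be split between them, whereas B2m has no such copy in the family. Psmb9 and Tap1 overlap on opposite strands, and whether counting used strand is not given in the sources used here.

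The remaining members, among them the class II chains H2-Aa, H2-Ab1 and H2-Eb1, the invariant chain Cd74 and the class II transactivator Ciita, did not reach an unadjusted p under 0.05, with log2 differences of 0.01 to 0.35. H2-Q5, listed as a polymorphic pseudogene and not a member, had 11.9, 11.2, 6.24 and 10.8 FPKM in Cko against 4.33, 4.16, 4.39 and 4.20 FPKM in WT. Its log2 difference was 1.10 (SE 0.17, limma adjusted p = 0.196), and it ran from 0.86 to 1.34 over the settings that tested it. H2-Q5 was chosen for mention after its values were seen.

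**Figure D3:**
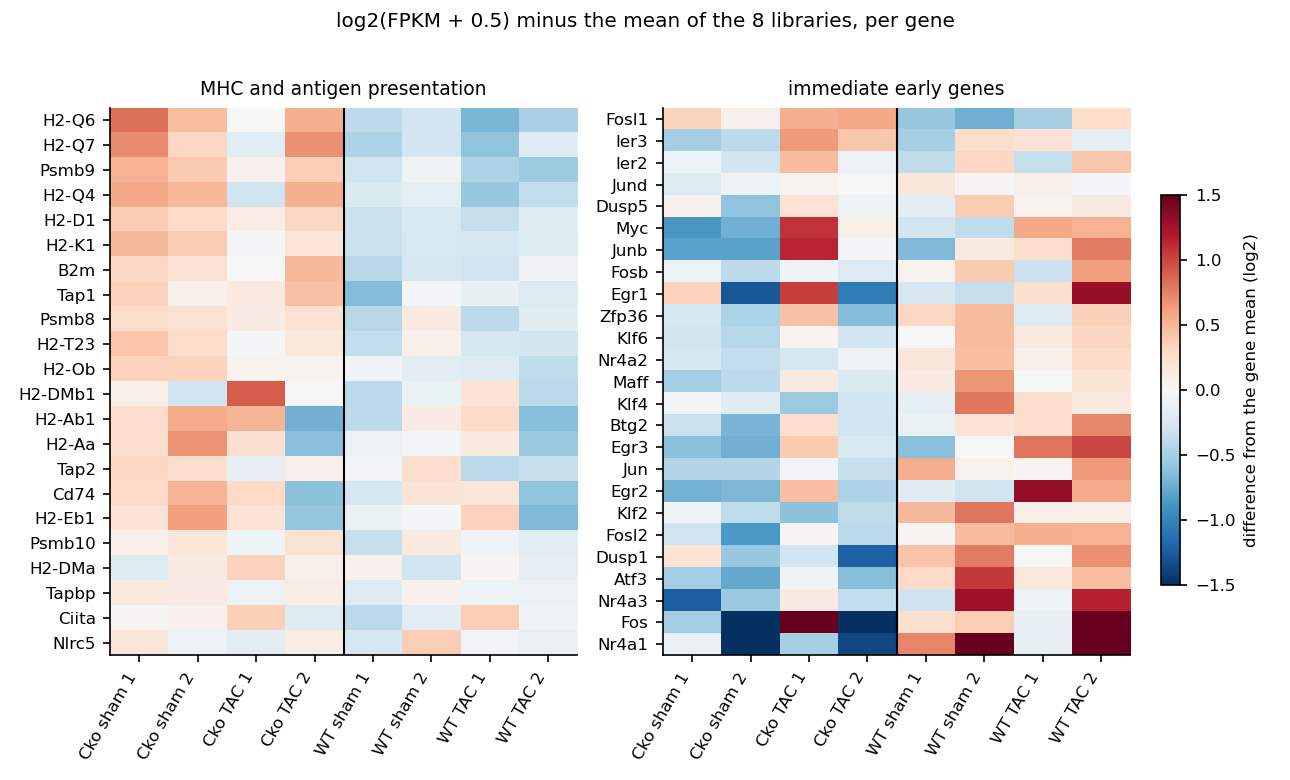
Each row is a gene, each column a library (Cko left of the line, WT right), and colour is log2(FPKM + 0.5) minus the mean of that gene over the 8 libraries, clipped at 1.5 either way; rows run from the highest to the lowest genotype difference. Class I genes are above their mean in Cko sham and Cko TAC 2 and nearer to it in Cko TAC 1, and most immediate early genes are below their mean in Cko sham 1, Cko sham 2 and Cko TAC 2 but above it in Cko TAC 1.

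Most of these genes lie together in the MHC region of chromosome 17. Between 33915899 and 36032855 on that chromosome, 100 genes were tested, of which 25 were higher and 2 lower at an unadjusted p under 0.05 (27%). The 78 of them that are neither members nor other H2 genes had 13 higher and 2 lower (19.2%). Chromosome 17 outside this window had 8.51% either way, and all genes tested had 11.0%. With no overlap within either surgery, 8 of the 78 lay above WT and 1 below (11.5%). That share was near the 10.9% of all genes and the 9.66% of chromosome 17 outside the window. Of the 5 members on other chromosomes, 1, B2m, was higher at that level. Whether the 2 genotypes carry the same haplotype in this region was not tested.

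Promoter sequences are shown for 4 of the genes, 2 for each of the motifs searched, because the class I genes lay above WT together. Of the 22 members, 17 had an entry in the RefSeq promoter table (GRCm38.p6, 250 bases before to 50 after the start). The NF-kappaB motif, searched on both strands as an exact match to the 10 letters in capitals under H2-D1, was in the window of 4 of the 17 (H2-K1, H2-D1, H2-Q6 and H2-Q7), and in 35 of all 32851 promoters of the same length (0.107%). These 4 are class I copies with near-identical sequence around the motif, so they are not 4 separate matches, and no enrichment was tested. The interferon response motif, GAAA and GAAA with any 2 letters between them, searched likewise, was in the window of 2 of the 17 (B2m and H2-T23) and of H2-T22, and in 3.44% of all promoters. The capitals mark the NF-kappaB motif in H2-D1 (chr17:35262844-35263143, plus strand) and H2-Q6 (chr17:35424600-35424899, plus strand), and the interferon response motif, or its reverse complement, in B2m (chr2:122147437-122147736, plus strand) and H2-T22 (chr17:36042693-36042992, minus strand). A match describes letters in this window and says nothing of binding in these hearts.
H2-D1: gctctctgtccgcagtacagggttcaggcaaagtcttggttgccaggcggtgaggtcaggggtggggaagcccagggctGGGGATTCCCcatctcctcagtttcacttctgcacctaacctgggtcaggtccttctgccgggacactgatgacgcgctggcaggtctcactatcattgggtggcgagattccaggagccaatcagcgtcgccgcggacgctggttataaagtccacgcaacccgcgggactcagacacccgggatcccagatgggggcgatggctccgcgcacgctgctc
H2-Q6: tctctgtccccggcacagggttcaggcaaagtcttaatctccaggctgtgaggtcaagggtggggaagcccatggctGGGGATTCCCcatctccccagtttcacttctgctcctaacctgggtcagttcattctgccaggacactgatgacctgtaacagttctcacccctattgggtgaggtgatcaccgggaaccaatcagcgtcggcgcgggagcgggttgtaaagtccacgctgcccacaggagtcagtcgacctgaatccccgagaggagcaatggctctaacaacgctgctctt
B2m: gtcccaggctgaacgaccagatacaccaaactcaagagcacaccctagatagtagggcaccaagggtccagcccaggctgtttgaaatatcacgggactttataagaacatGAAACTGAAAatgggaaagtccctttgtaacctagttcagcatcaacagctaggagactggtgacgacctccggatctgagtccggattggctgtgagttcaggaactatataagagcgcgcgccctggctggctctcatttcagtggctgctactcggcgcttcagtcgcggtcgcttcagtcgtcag
H2-T22: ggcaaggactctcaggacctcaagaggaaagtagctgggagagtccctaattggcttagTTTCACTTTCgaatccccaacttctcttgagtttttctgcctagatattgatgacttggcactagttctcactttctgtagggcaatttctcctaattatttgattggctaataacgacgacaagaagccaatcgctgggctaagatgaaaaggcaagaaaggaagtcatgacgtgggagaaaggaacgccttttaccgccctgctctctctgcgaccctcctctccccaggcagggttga

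Interferon-stimulated genes as a list showed no genotype direction that held across surgeries and libraries. Of 26 tested, 22 were positive with a median of 0.16 (-0.23 under sham, 0.43 under TAC). At an unadjusted p under 0.05, 3 were higher (5.34% of all genes were) and 0 lower. Without WT sham 1, 10 of 26 were positive and the median was -0.12, so the direction of the list rests on that library. The 3 were Irf1, a transcription factor that acts on class I genes, the GTPase Gbp2 and the GTPase Iigp1. Irf1 had 16.3, 15.02, 11.6 and 12.5 FPKM in Cko against 8.42, 9.80, 8.10 and 9.48 FPKM in WT, with all Cko libraries above all WT libraries (log2 difference 0.60, SE 0.11; limma adjusted p = 0.196).

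Immediate early genes, transcribed within minutes of a stimulus such as calcium entry, growth factors or flow, lay mostly below WT. Of 25 tested, 22 had a negative log2 difference, and the median was -0.50 (-0.57 under sham, -0.51 under TAC). At an unadjusted p under 0.05, 14 were lower (5.7% of all genes were) and 1 was higher; 10 lay below with no overlap within either surgery (6.13% of all genes). Without WT sham 1 the counts were 14 lower and 1 higher. Leaving out 1 library at a time gave 10 to 17 lower, with 17 without Cko TAC 1, the Cko library in which most of these genes stood above their own mean over the 8 libraries.

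Klf2 had 58.8, 47.0, 40.1 and 47.0 FPKM in Cko against 86.3, 108, 64.8 and 65.3 FPKM in WT, with no overlap (log2 difference -0.72, SE 0.12; limma adjusted p = 0.196). The AP-1 subunit Jun had 21.3, 21.3, 28.3 and 22.9 FPKM in Cko against 42.7, 30.1, 29.6 and 46.1 FPKM in WT, and the lowest WT library stood just above the highest Cko library (log2 difference -0.64, SE 0.17; limma adjusted p = 0.256). Another AP-1 subunit, Fosl2, and the stress-induced factor Atf3 had log2 differences of -0.78 and -0.99, also with all Cko libraries below all WT libraries. Nr4a1, an orphan nuclear receptor, spread widely, with 6.23, 1.49, 4.61 and 2.31 FPKM in Cko against 11.5, 21.3, 6.10 and 21.9 FPKM in WT. Its groups did not overlap within either surgery but met across surgeries (log2 difference -1.91, SE 0.50; limma adjusted p = 0.255). The phosphatase Dusp1, an inhibitor of MAP kinases, had a log2 difference of -0.94 (SE 0.27). Fosl1, an AP-1 subunit, lay on the other side, with 3.14, 2.53, 3.72 and 3.83 FPKM in Cko against 1.44, 1.24, 1.54 and 2.99 FPKM in WT (log2 difference 0.77, SE 0.17; limma adjusted p = 0.228).

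Among clock genes and their outputs, a few members lay below WT while the lists as a whole were split. Per1, a clock gene that hormones also induce directly, had 2.74, 4.85, 2.78 and 3.98 FPKM in Cko against 12.8, 19.5, 5.68 and 5.56 FPKM in WT (log2 difference -1.32, SE 0.30; limma adjusted p = 0.228). It was the only one of 18 core clock genes past an unadjusted p of 0.05, and 9 of the 18 were positive. A share of 1 in 18 is near that of lower genes over all tested (5.7%). In a list of clock outputs, 5 of 14 tested were lower (5.7% of all genes were) and 0 higher, while 6 of 14 were positive and the list median was -0.11. The 5 were Klf15, Tsc22d3, Fkbp5, Sgk1 and Cdkn1a, of which the first 4 are known targets of the glucocorticoid receptor and Cdkn1a is a cell cycle inhibitor. Tsc22d3 had 18.4, 17.4, 14.6 and 17.6 FPKM in Cko against 48.8, 41.7, 23.8 and 18.1 FPKM in WT; the groups lay close together under TAC (log2 difference -0.84, SE 0.20; limma adjusted p = 0.249). The same 5 of 14 count held without WT sham 1. An index of clock genes, the mean of 4 genes of one phase minus the mean of 6 of the other on the log2 scale, differed between replicates of 1 group. It was 0.94, -2.55, -2.46 and -3.01 in Cko and 0.59, -2.58, 0.77 and -1.35 in WT. With the index as a covariate 13 immediate early genes were lower. The part of collection time and handling in these values was not tested.

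Sarcomere genes lay partly below WT. Of 23 tested, 9 were lower at an unadjusted p under 0.05 (5.7% of all genes were) and 0 higher, with a list median of -0.16, and without WT sham 1 the count was also 9. Among the lower ones were the giant protein Ttn, the M-band proteins Myom1 and Myom2, the Z-disc proteins Nexn, Ldb3 and Nebl, the actin-nucleating Lmod2 and the myosin light chain kinase Mylk3. Nexn had 86.0, 81.8, 74.8 and 68.0 FPKM in Cko against 113, 110, 128 and 114 FPKM in WT, with all Cko libraries below (log2 difference -0.58, SE 0.10; limma adjusted p = 0.196). Ttn had 15.04, 16.6, 12.3 and 16.6 FPKM in Cko against 22.8, 19.7, 19.4 and 17.7 FPKM in WT, a narrower gap but again without overlap (log2 difference -0.39, SE 0.11; limma adjusted p = 0.281). Myom2 showed 83.1, 76.1, 48.8 and 54.1 FPKM in Cko against 89.4, 123, 124 and 88.3 FPKM in WT (log2 difference -0.71).

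Of the genes that move calcium in the cardiomyocyte, 6 of 21 tested were lower and 2 higher at that level, beside 5.7% and 5.34% of all genes. Leaving out WT sham 1 gave 5 lower and 2 higher. The lower ones were the L-type channel subunits Cacna1c and Cacna2d1, the ryanodine receptor Ryr2 with its partners Trdn and Asph, and the dyad protein Jph2. Cacna1c had 7.16, 6.39, 4.996 and 5.18 FPKM in Cko against 8.91, 9.31, 8.54 and 6.39 FPKM in WT (log2 difference -0.45, SE 0.10; limma adjusted p = 0.228). Ryr2 had 23.4, 22.1, 17.9 and 16.8 FPKM in Cko against 27.2, 24.96, 29.2 and 23.03 FPKM in WT (log2 difference -0.38, SE 0.11). The higher ones were sorcin, Sri, and the store-operated channel Orai1, at log2 differences of 0.22 and 0.27. Of the calpain and calcineurin list, 4 of 18 tested were lower (Rcan2, Ppp3cc, Rcan1 and Fhl2; 5.7% of all genes were) and 1 higher (Akap5). Leaving out WT sham 1 gave 3 lower and 1 higher. Rcan2, a regulator of calcineurin, had 60.4, 60.9, 57.5 and 55.2 FPKM in Cko against 75.5, 78.7, 78.6 and 73.8 FPKM in WT, an even step in both surgeries (log2 difference -0.39, SE 0.08; limma adjusted p = 0.228).

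The other mechanosensitive channels showed little. Of 25 listed, 8 stayed below the filter on low values, Piezo2 among them, and of the 17 tested 1 was lower and 0 higher, with a median of -0.03. The fit without WT sham 1 also had 1 lower and 0 higher, with a median of -0.08. A share of 1 in 17 is near that over all genes (5.7%). That one was Tmem63b, an osmosensitive cation channel, with 15.7, 15.7, 10.4 and 11.6 FPKM in Cko against 19.2, 20.8, 12.1 and 13.0 FPKM in WT (log2 difference -0.26, SE 0.08; limma adjusted p = 0.306). Of 26 ion channels of the action potential, 6 were lower (5.7% of all genes were) and 0 higher (6 and 0 without WT sham 1), with the potassium channel Kcnk3 at a log2 difference of -0.34. In the hypertrophy list 4 of 19 were lower (5.7% of all genes were) and 0 higher (4 and 0 without WT sham 1), namely Myh7, Rcan1, Mybpc2 and Enah. Myh7, the slow myosin heavy chain, had 15.6, 13.7, 32.5 and 16.6 FPKM in Cko against 24.6, 24.9, 266 and 56.7 FPKM in WT, where WT TAC 1 stood far above the rest (log2 difference -1.56, SE 0.52; limma adjusted p = 0.330). Without both WT sham 1 and WT TAC 1, 1 of the 19 was lower.

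**Figure D4:**
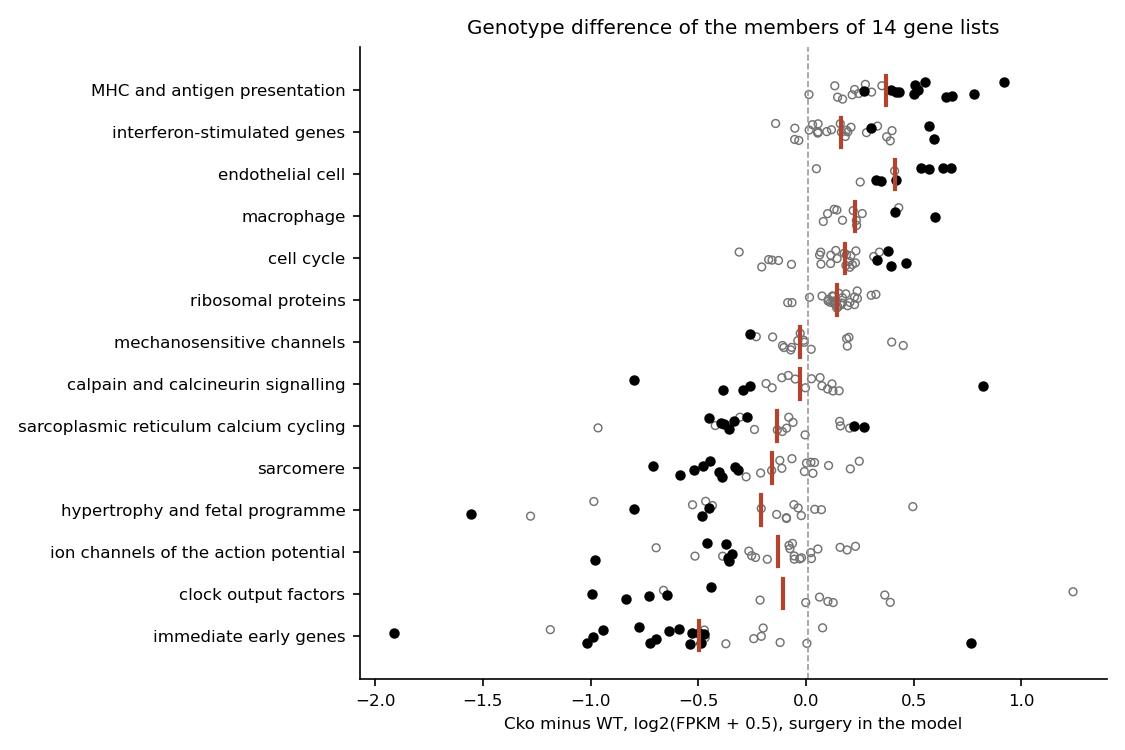
Each point is 1 gene of a list, placed by its log2 difference Cko minus WT over both surgeries, filled where the unadjusted p was under 0.05; red bars are list medians and the dashed line is the median of all genes tested. MHC members are all on the positive side and 22 of 25 immediate early genes on the negative side.

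Gene length moved with the direction of the difference. Genes higher at an unadjusted p under 0.05 had a median listed length of 2867 bases and those lower 5072 bases, against 3708 bases over all genes tested. With genes split by length into 5 bins of like size, 200 were higher and 103 lower in the shortest bin, and in the longest bin 65 were higher and 260 lower. The trend was in the TAC libraries, where the median difference was 0.12 in the shortest bin and -0.09 in the longest, and under sham both were -0.02. The 9 sarcomere genes that were lower had a median length of 8853 bases, against 2139 bases in the other members, and the 6 calcium genes 14259 bases, against 2934 bases. Immediate early genes that were lower had a median length of 3294 bases, near that of all genes, and the MHC list one of 2602 bases. The part of length in the sarcomere and calcium counts was not tested.

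**Figure D5:**
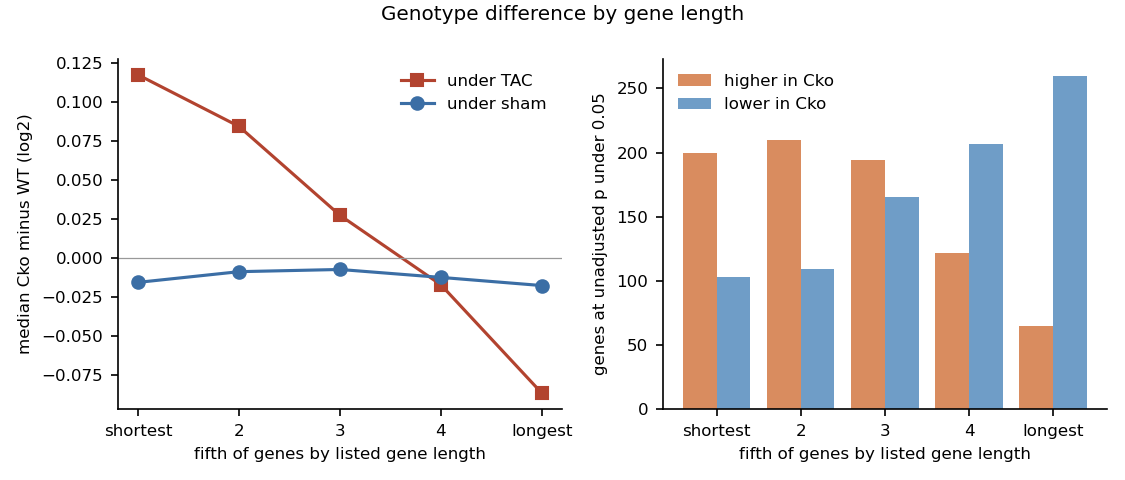
Left, median Cko minus WT (log2) of the genes in each of 5 bins of listed gene length, under TAC in red and under sham in blue; right, the number of genes at an unadjusted p under 0.05 in each bin, higher in orange and lower in blue. The medians under TAC run from 0.12 to -0.09 while those under sham stay near 0.

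Endothelial markers lay above WT in all 10 cases, with a median of 0.41, and 7 were higher at an unadjusted p under 0.05 (5.34% of all genes were), but 1 alone, Fabp4, did not overlap within either surgery (4.76% of all genes lay above in this way). The VE-cadherin gene Cdh5 had 105, 111, 98.2 and 138 FPKM in Cko against 52.9, 59.2, 74.7 and 115 FPKM in WT, and the groups overlapped under TAC (log2 difference 0.64, SE 0.19; limma adjusted p = 0.296). Without WT sham 1, 2 of the 10 were higher; 3 were without Cko sham 1 or WT TAC 1, and 4 without Cko sham 2 or Cko TAC 2, so this count rests on each of these libraries. The summed level of the 10 was 825, 876, 766 and 947 FPKM in Cko and 467, 665, 462 and 745 FPKM in WT. B2m and the class I genes, which endothelial cells and macrophages also express, lay above WT as well. The part of cell composition in the class I values was not tested. Klf2, which endothelial cells also express, lay below WT. In bulk tissue, fewer cells of a type and less RNA per cell cannot be told apart.

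Macrophage markers were positive in 12 of 12, with 2 higher (Cd68 and Lyz2; 1 without WT sham 1), and their summed level was 514, 515, 1077 and 806 FPKM in Cko and 448, 483, 707 and 685 FPKM in WT. Smooth muscle and pericyte markers were positive in 9 of 9, with a median of 0.18 and 0 past an unadjusted p of 0.05; without WT sham 1, 5 of 9 were positive with a median of 0.005, so their direction rests on that library. Cardiomyocyte markers had 1 of 8 lower, Ryr2, with WT sham 1 and without it. Of 10 neutrophil markers 4 were tested, and 1, Retnlg, was lower, also without WT sham 1, with 0, 0, 0.64 and 0 FPKM in Cko against 2.97, 0.71, 3.72 and 2.29 FPKM in WT (log2 difference -2.11, SE 0.37; limma adjusted p = 0.196). Their summed level was 6.35, 9.47, 49.4 and 3.55 FPKM in Cko and 49.3, 7.09, 39.5 and 23.5 FPKM in WT, which overlapped, and the listed markers Elane and Mpo were at or near 0 throughout. Beside the macrophage, cardiomyocyte and neutrophil counts above, 5.34% of all genes were higher and 5.7% lower at an unadjusted p under 0.05. Of 28 ribosomal protein genes 26 were positive, with a median of 0.35 under TAC and -0.04 under sham, and 0 passed an unadjusted p of 0.05. Leaving out WT sham 1 also gave 26 and 0.

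Genes next to Piezo1 on chromosome 8 were counted, since a modified allele is passed on with its surroundings. Within 5 Mb, 112 genes were tested, of which 7 were higher and 8 lower at an unadjusted p under 0.05 (13.4%), beside 11.0% of all genes and 11.2% on the rest of the chromosome. With no overlap within either surgery, 7 lay above WT and 11 below (16.1%), beside 10.9% of all genes and 10.9% on the rest of the chromosome. Of the 112 genes, Osgin1, described above, had the smallest p. Rhou had 2.09, 1.27, 2.24 and 2.14 FPKM in Cko against 3.90, 2.65, 5.21 and 3.04 FPKM in WT, with no overlap (log2 difference -0.77, SE 0.19; limma adjusted p = 0.249). Irf2bp2, a transcriptional corepressor, had a log2 difference of -0.61. Within 10 Mb, 11.7% of 128 genes were past an unadjusted p of 0.05, and 14.8% had no overlap within either surgery.

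The genotype difference itself differed between surgeries in 3 genes at an adjusted p of 0.05 (limma interaction, 0.0202%). Gapdh, a glycolytic enzyme, had 2.31 and 2.84 FPKM in Cko sham against 81.1 and 122 FPKM in WT sham, and 2.32 and 2.25 FPKM in Cko TAC against 1.77 and 1.55 FPKM in WT TAC. Both WT sham libraries alone were high. Gapdh has many near-identical pseudogene copies among which reads can be split, so its value is uncertain. The other two, Gm22574 and Gm22107, are short predicted genes with at most 10 reads in a library.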

How the data were processed

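Per the labels' protocols, heart RNA was taken with Trizol and libraries were built with an NEBNext Ultra kit. Of tools, the submitters' processing notes list featureCounts 1.5.0-p3, Bowtie 0.12.2 and CASAVA 1.8. They list mm10 and mm8 as builds, without saying which served for what. The authors deposited 1 table of FPKM values for 54532 genes, the lengths of which it lists. Its positions equalled those of GENCODE release M21 (GRCm38, also called mm10) for 53585 of 54495 shared identifiers.

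Multiplying each FPKM by its gene's listed length and dividing by the smallest step found in that library gave whole reads, to within 0.01, for 100% of non-zero values. The values tested were log2(FPKM + 0.5). This scale understates the change of low genes. Genes with 0.5 FPKM or more in at least 2 libraries were fitted with genotype and surgery as terms, by limma 3.58.1 in R 4.3.3, with an intensity trend and robust moderation (residual degrees of freedom 5, with a median prior of 3.23). p-values are two-sided, adjusted by Benjamini-Hochberg over 14817 genes. Values were FPKM, so the reported fit used no count model. limma-voom on the recovered reads was run among the 27 settings. The fit was tested on simulated counts with the same spread setting for every gene and library. Replicates of these data differ more unevenly, so that test does not show how the fit performs on them.

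The 45 gene lists and the rule for named genes were chosen with earlier results of these data known. That rule takes Piezo1, the 10 genes with the smallest p in each direction that have a mean log2(FPKM + 0.5) of at least 1 and no overlap within either surgery, leaving out predicted genes and pseudogenes, the 3 genes with the smallest p within 5 Mb of Piezo1, and the member of each list with the smallest p. Other list members at an unadjusted p under 0.05, and Gm22121, Snord34, Esr1 and H2-Q5, were chosen for mention after their values were seen. Results were computed under 27 settings, the reported one included, of scaling, filter, pseudocount, model and libraries. Medians are given for lists with at least 5 members tested.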

Additional observations from a re-analysis of the deposited data

Results flagged for a closer look

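The genotype difference itself differed between TAC and sham in 3 genes (limma interaction, TAC minus sham on the log2 scale). It was 5.40 for Gapdh (adjusted p = 0.0035), 5.01 for Gm22574 (adjusted p = 0.0258) and 3.56 for Gm22107 (adjusted p = 0.0435). Gm22574 had 5, 3, 10 and 6 reads in Cko and 9, 7, 0 and 0 in WT, and overlaps Cox7c. Gm22107 had 0, 0, 4 and 3 reads in Cko and 1, 1, 0 and 0 in WT, and overlaps Myh9.

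Single libraries stood far from the other 3 of their genotype in 21 of 314 sets of 4 libraries, over 157 genes, by Dixon's criterion at 95%. Chance flags about 1 in 20 such sets, and each set mixes sham and TAC libraries. In Cko TAC 1 these were Myh7 at 32.5 FPKM, H2-Q4 at 29.0 FPKM, Egr2 at 1.18 FPKM and Retnlg at 0.640 FPKM. In Cko TAC 2 they were H2-T22 at 26.9 FPKM, Pdk1 at 12.3 FPKM and Cd79b at 0.728 FPKM. In Cko sham 2 they were Hbb-bs at 103.0 FPKM, Sik1 at 2.97 FPKM, Gapdh at 2.84 FPKM and Rhou at 1.27 FPKM. In WT TAC 1 they were Myh7 at 266 FPKM, Ctgf at 265 FPKM, Cilp at 112 FPKM and Ighm at 9.78 FPKM. WT sham 2 had Bag3 at 116 FPKM, Sgk1 at 31.0 FPKM and Fbxo32 at 16.2 FPKM. WT sham 1 had Esr1 at 144 FPKM and Fosl2 at 4.05 FPKM, and WT TAC 2 had Alox12 at 2.47 FPKM.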

How the results depend on the processing

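Genes past an adjusted p of 0.05 stayed few under every setting run. There was 1 higher gene with a pseudocount of 0.1 FPKM, with no filter, with mitochondrial genes left out and equal totals, with the replicate block, with no trend and with TAC libraries alone, and 1 lower gene with 1 term per group and with sham libraries alone. Leaving out libraries gave 0 to 2 higher and 0 to 1 lower. At an unadjusted p under 0.05, higher genes numbered 425 with surgery left out and 467 with TAC libraries alone. Lower genes numbered 543 with mitochondrial genes left out and equal totals, 471 with surgery left out, 536 with sham libraries alone and 495 with TAC libraries alone. Genes with Cko above WT and no overlap numbered 1114 with mitochondrial genes left out and equal totals, 2585 under sham alone, 2828 under TAC alone and 993 to 1728 without libraries; those below numbered 546, 2832, 2667 and 1225 to 1951. Fewer libraries leave fewer chances to overlap.

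Within 5 Mb of Piezo1 there were 8 genes with surgery left out, 9 under sham alone and 7 to 17 without libraries, and within 10 Mb 8 with surgery left out and 7 to 18. MHC members higher were 5 and immediate early members lower 7 under TAC alone, and sarcomere members lower 3 under sham alone. Endothelial members higher were 4 with the clock covariate, 0 under TAC alone and 0 to 9 without libraries.

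List medians under sham alone were -0.12 for calpain and calcineurin, 0.53 for the cell cycle, 0.49 for MHC, -0.044 for ribosomal proteins and -0.14 for lymphatic endothelium. Under TAC alone they were -0.14 for the cell cycle, 0.068 for heat shock and 0.35 for ribosomal proteins. The CaMKII and HDAC median was -0.062 with mitochondrial genes left out and equal totals, -0.054 with the clock covariate and -0.12 to -0.016 without libraries. The B and plasma cell median was 0.32 with protein-coding genes alone. Without libraries it was -1.66 to 0.48, the calcium cycling median -0.20 to -0.087, the fibroblast median -0.32 to 0.094 and the lymphatic median -0.14 to 0.11.

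Signs turned as follows. Piezo1 was at -0.28 under TAC alone and -0.10 (without WT sham 1) to 0.16 without libraries, with -0.080 without Cko sham 1 and -0.086 without both WT sham 1 and WT TAC 1. mt-Rnr1 was at -0.17 under sham alone and -0.094 (without both) to 0.39 without libraries, with -0.030 without Cko TAC 2 and -0.031 without WT TAC 1. Under TAC alone Glo1 was at 0.033, Tnni2 at -0.024, Ccl21a at 0.55 and Gapdh at 0.37. Under sham alone Gm22574 was at -1.05 and Gm22107 at -1.27. Without libraries Hbb-bs ran between -0.053 and 0.70, Wt1 between -0.063 and 0.45 and Tnni2 between -0.039 and 0.39, each negative without both. The cause was not tested for any of these.

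Replicate numbers do not pair the libraries in the labels. Differences between the replicates of a group, taken in label order, had a Pearson r of -0.022 to 0.19 between groups over the genes tested. The replicate block gave 1 higher and 0 lower genes past the threshold. Where 1 library is left out, the lone library of its group is assumed to vary like the others. The setting without both WT libraries, and the counts of list members without WT sham 1, were chosen after seeing the data.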

Other observations

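Further lists held scattered genes at an unadjusted p under 0.05, with 5.34% of all genes higher and 5.7% lower. Of 28 cell cycle genes, 4 were higher (Cdc6, Aurkb, Mcm5 and Mcm6, which act in replication licensing and mitosis) and 0 lower. Without WT sham 1, 1 was higher. Of 10 histone genes, 4 were higher (H3f3b, H2afx, Hist3h2a and Hist1h1c) and 0 lower, with 2 higher without WT sham 1. Of 38 extracellular matrix genes, 0 were higher and 2 lower, the matricellular Thbs1 at a log2 difference of -1.70 and Cilp at -1.44; 1 was lower without WT sham 1. The list median was -0.26, and 0.08 without both WT sham 1 and WT TAC 1. Of 24 targets of YAP/TAZ and SRF, 0 were higher and 4 lower, among them Ctgf at -1.32 and the factors Tead1 and Srf at -0.55 and -0.34. With WT sham 1 left out, 5 were lower.

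In energy metabolism, 0 of 38 fatty acid genes were higher and 2 were lower, the coactivators Ppargc1a and Ppargc1b, at log2 differences of -0.74 and -0.42, and without WT sham 1 the count was also 2. Of 41 nuclear genes of oxidative phosphorylation, 0 were past an unadjusted p of 0.05 in either direction, with a list median of 0.07, and 0 without WT sham 1 as well. The median of this list was -0.09 under sham and 0.25 under TAC. Without both WT libraries it was -0.08. A share of 2 in 38 fatty acid genes is near that of lower genes over all tested (5.7%).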
